A study of Mus musculus with 7 samples.

Results

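The Myc, Max and Mxd network was followed in hematopoietic stem cells (HSCs), the rare marrow cells that maintain all blood lineages, with and without the aryl hydrocarbon receptor gene Ahr. The network was taken as 10 genes, Myc, Mycn, Max, Mxd1, Mxd3, Mxd4, Mxi1, Mnt, Mga and Mlx. Their members were the array's probe sets whose platform annotation names 1 of these genes alone, which gave 11 probe sets of 23521 with a single symbol, or 10 genes of 22180. Mxi1 had 2 probe sets and the other 9 genes had 1 each. AhR, the product of Ahr, is a transcription factor switched on by aromatic ligands from diet, environment and metabolism, and the study asked how its loss affects HSC transcripts.

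The cells came from mice of the C57BL/6J background killed at 8 weeks of age. The Ahr-KO group (genotype label Ahr knockout) had 3 arrays and the WT group (wild-type Ahr) had 4. Marrow was depleted of lineage-positive cells and HSCs were selected by SLAM-family surface markers, so both groups share that selection. The labels name no Cre line, no treatment and no deleted exon, and they do not say whether an array stands for 1 mouse or a pool. P-values therefore set the genotype difference against the spread among arrays of the same genotype, and that spread may be technical.

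Myc and its close relative Mycn are basic helix-loop-helix leucine zipper transcription factors that bind DNA as dimers with Max, at E-box sites such as CACGTG, and drive genes of growth, ribosome production and metabolism. Mxd1, Mxi1, Mxd3, Mxd4 and Mnt compete for Max and recruit Sin3 and histone deacetylases to the same kind of site, and so oppose Myc. Mga pairs Max with a Polycomb complex, and Mlx is the partner through which the glucose-sensing factors MondoA (Mlxip) and ChREBP (Mlxipl) join the network. In marrow, Myc is known for the balance between self-renewal and differentiation of HSCs, where Mycn can act beside it.

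The E-box is shown because it is the sequence the network's dimers read, and network genes can carry it themselves. RefSeq (GRCm38.p6) windows from 250 bases before to 50 bases after a transcript start covered 9 of the 10 genes, all except Myc, in 11 windows. CACGTG, which reads the same on both strands, lay in 4 of the 11 windows, each of a different gene, against 7.15% of all 32851 windows of the same length. The sites follow on the strand of the gene, with the E-box in capitals.
Max, chr12:76962234-76962263, minus strand: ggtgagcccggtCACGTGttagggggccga
Mlx, chr11:101087238-101087267, plus strand: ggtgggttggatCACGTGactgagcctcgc
Mnt, chr11:74830789-74830818, plus strand: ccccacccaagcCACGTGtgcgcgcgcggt
Mxd4, chr5:34187912-34187941, minus strand: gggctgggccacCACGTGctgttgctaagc
The E-box of Max began 3 bases before the transcript start, that of Mlx 40 bases, that of Mnt 123 bases and that of Mxd4 219 bases before it. GCGTG, the core of the site that AhR binds with its partner ARNT, was searched on both strands in the same windows and does not overlap the E-box letters shown. It lay in 4 of the 11 windows, those of Max, Mga, Mnt and Mxd1, which is near the share of 32.4% over all windows. The Mnt match, here with the reverse complement of that core in capitals, lies at chr11:74830683-74830711 on the plus strand.
Mnt, AhR core: gaatgccctaagCACGCaaaccccgttta
The 3 windows of Mxi1 held neither motif. These matches describe the letters of the windows, and no binding was measured.

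Array medians ran from 16.9 to 22.1 intensity units, and 30.7 to 44.9% of the tested probe sets per array lay above a background mark, set on each array so that 95% of 1108 probe sets for olfactory receptors fell below it (33.8 to 42.8 units). WT replicate 2 had the smallest share above the mark and, at a mean of 0.625, correlated least with the rest. The means of the other arrays were also low, from 0.662 to 0.707. Arrays did not group by genotype: the highest pair was Ahr-KO replicate 2 with WT replicate 4, at 0.772. Pairs within Ahr-KO ran from 0.659 to 0.687. The probe set of Ahr itself gave 34.1, 137 and 26.4 on the Ahr-KO arrays, against 31.3, 57.9, 14.9 and 20.5 on the WT arrays, so it did not mark the genotype, and the labels do not say whether it lies in the deleted part. Ahr-KO is used here as the name of the label, and single values are given in the order of the replicate numbers. Of 8 measured HSC markers, Kit, Hlf, Gata2 and Meis1 were above the mark on all 7 arrays, while Slamf1, which encodes the SLAM marker CD150, was above it on 3 Ahr-KO arrays and 1 WT array. Mecom was listed at 0 on WT replicate 2.

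No network probe set passed the threshold. With limma on log2(intensity + 1), 0 of the 11 members and 0 of all 25335 tested probe sets (0%) had an adjusted p under 0.05, and the lowest adjusted p of any probe set was 0.961. Before adjustment, 3 of the 11 members had a p under 0.05, both Mxi1 probe sets, with higher values in Ahr-KO, and Mnt, with lower values. That is 27.3% of the members, against 4.21% of all tested probe sets (1067), made up of 1.99% higher and 2.22% lower in Ahr-KO. Mxi1 enters that share with 2 probe sets. Values were higher in Ahr-KO for 7 members and lower for 4, where 48.3% of all tested probe sets were higher. The median log2 difference of the members was 0.42, against -0.03 over all tested probe sets. It was -0.13, with 4 members higher, when Ahr-KO replicate 3 was left out. The count of 3 fell to 1, the Mxi1 probe set 17365690, without Ahr-KO replicate 1 and also without Ahr-KO replicate 2. It was also 1 with the replicate number as a block. Without Ahr-KO replicate 3 the count was 3 again, but that Mxi1 probe set was not among them (limma unadjusted p of 0.0514) and Mycn was (0.0232).

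**Figure D1:**
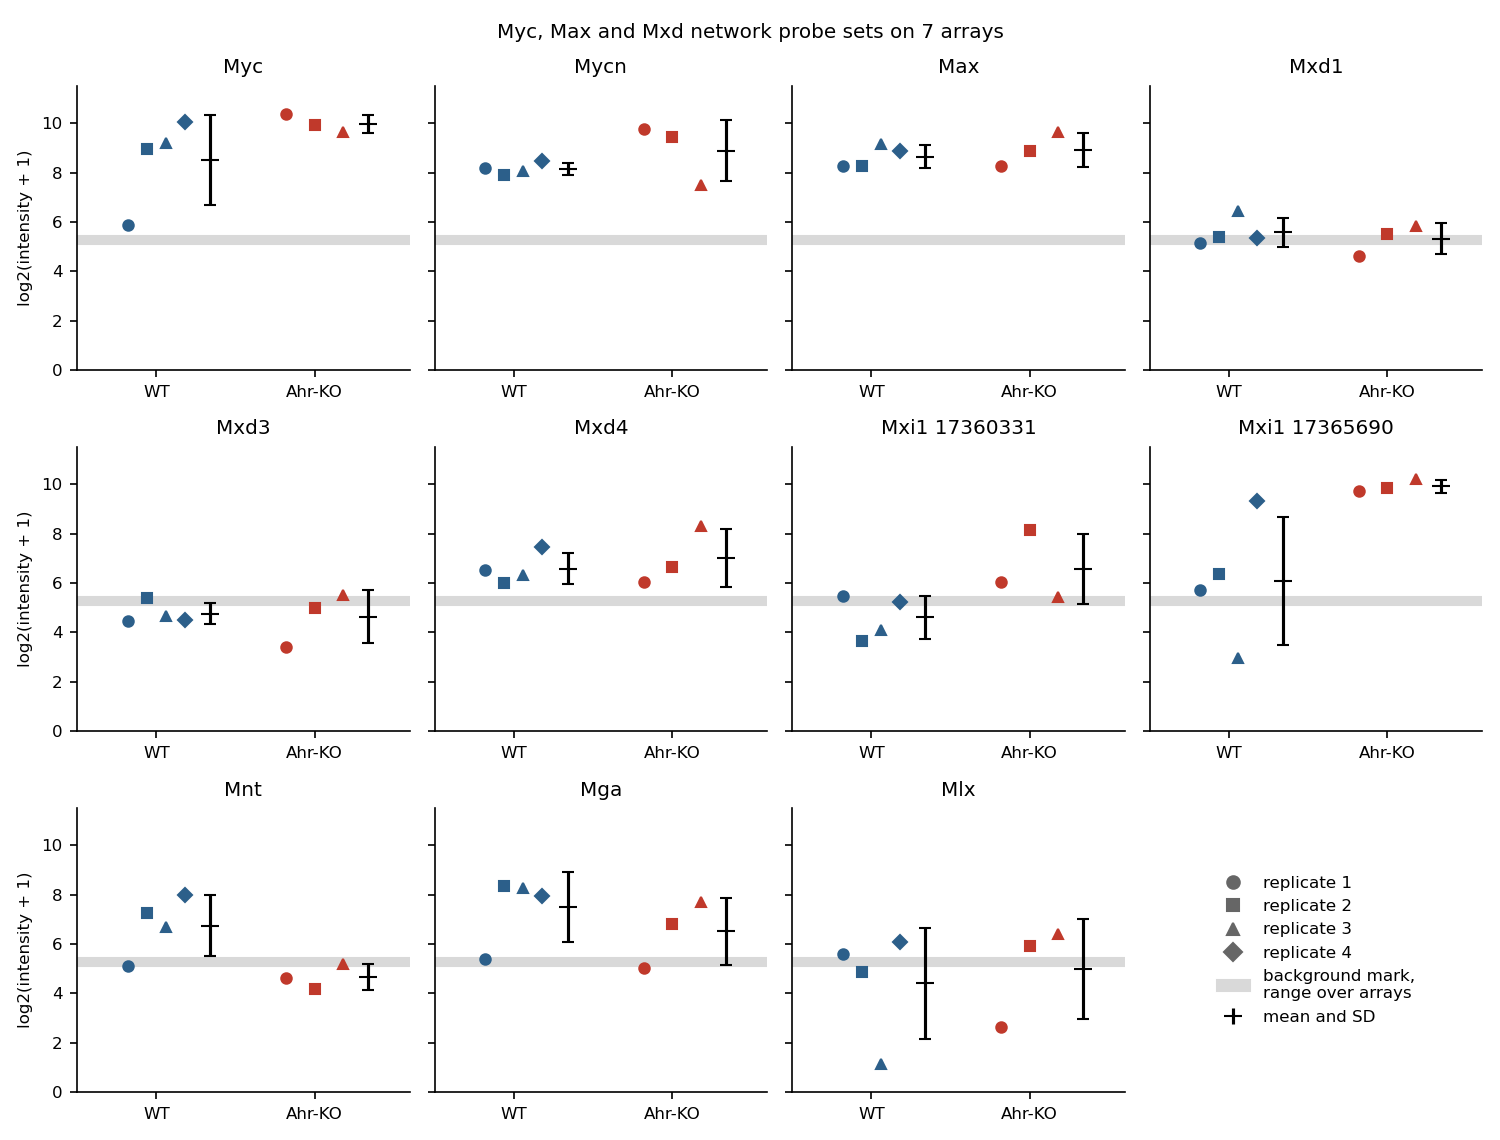
Each panel plots log2(intensity + 1) of a network probe set on the 4 WT and 3 Ahr-KO arrays, with the mean and SD of each group beside the points and the range of the background mark in grey. The 3 Ahr-KO points of Mxi1 probe set 17365690 lie above all 4 WT points, and in the other panels the groups overlap.

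Myc, the founding member and the main driver of growth genes, gave 1315, 964 and 803 intensity units on the Ahr-KO arrays, against 58.0, 494, 590.5 and 1046 on the WT arrays. The 3 Ahr-KO arrays were bright and close together, WT replicate 1 was far below the rest, and WT replicate 4 reached into the Ahr-KO range. Group means were 1027 ± 262 (SD, n = 3) for Ahr-KO and 547 ± 405 (SD, n = 4) for WT. On the log2 scale Ahr-KO minus WT was 1.46 ± 0.95 (SE), with a 95% interval from -0.74 to 3.66 and a limma adjusted p of 0.963. An exact two-sided permutation test over the 35 splits gave p = 0.229, where the smallest p they allow is 0.0286. Without WT replicate 1 the log2 difference was 0.58.

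The summed markers of granulocytes and of basophils were also low on WT replicate 1, and the sum for erythroid cells and megakaryocytes was not. All 12 granulocyte and monocyte markers had higher mean log2 values in Ahr-KO, and their summed intensity ran from 6998 to 18315 on the Ahr-KO arrays and from 1165 to 19135 on the WT arrays, with the lowest sum on WT replicate 1. None of the 12 was listed at 0; on that array the granule gene Ngp stood at 0.04 and the calprotectin gene S100a8 at 5.97. The sum of mast cell and basophil markers was also lowest there, at 109.9 against 976 to 4210 on the other WT arrays. Mcpt8 and Prss34 were low there, at 3.76 and 6.1, while Fcer1a had its highest WT value, at 45.65. Of the 4210, on WT replicate 2, Cpa3 gave 1670 and Gata1 gave 1299. The sum of the 6 measured erythroid and megakaryocyte markers went the other way, at 2082 on WT replicate 1 and 699 to 1664 on the other WT arrays. Pf4 gave 1565 of the 2082, while Car1 had its lowest WT value there, at 73.55, and Itga2b was higher on WT replicate 4. The part of these cells in the Myc values was not tested, and in bulk samples fewer cells of a type and less RNA per cell cannot be told apart.

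Mycn, the family member that can substitute for Myc in HSCs, gave 855, 686 and 178 on the Ahr-KO arrays, against 288, 239, 265 and 354 on the WT arrays. The WT arrays agreed closely, with a log2 SD of 0.24. The Ahr-KO arrays did not, with a log2 SD of 1.22, since replicates 1 and 2 were the highest of the 7 arrays and replicate 3 the lowest. Mycn differed by 0.73 ± 0.62 log2 units (SE; limma adjusted p = 0.963), with a 95% interval from -0.71 to 2.17. It was 1.43 without Ahr-KO replicate 3 and 0.30 without Ahr-KO replicate 1.

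Max, the shared dimer partner of Myc, Mycn, the Mxd proteins, Mnt and Mga, was measured above the background mark on all 7 arrays. It gave 308, 465 and 791 on the Ahr-KO arrays, against 305, 311, 576 and 469 on the WT arrays. The groups overlapped almost entirely, apart from the highest value, on Ahr-KO replicate 3. Max differed by 0.27 ± 0.52 log2 units (SE; limma adjusted p = 0.972), with a 95% interval from -0.92 to 1.47, and it was -0.08 without that array. Its standard error was the smallest of the 11 members, against a median of 0.69 over all tested probe sets, so differences well inside that interval were not detectable here.

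Mxi1, also called Mxd2, is an antagonist that takes Max from Myc, and it had the highest log2 difference of the network. Probe set 17365690 gave 835, 916 and 1185 on the Ahr-KO arrays, against 51.0, 80.9, 6.93 and 633 on the WT arrays. All 3 Ahr-KO values lay above all 4 WT values, and it was the 1 member of 11 whose groups did not overlap, where 5.74% of all tested probe sets did not overlap in either direction and 2.61% with the higher values in Ahr-KO. The Ahr-KO arrays lay within a log2 SD of 0.26 and the WT arrays were spread over a log2 SD of 2.60, with WT replicate 4 close to the Ahr-KO level and WT replicate 3 under the background mark. The log2 difference was 3.83 ± 1.29 (SE), with a 95% interval from 0.85 to 6.81, a limma unadjusted p of 0.0181 and an adjusted p of 0.963. The exact permutation p was 0.0571, two-sided. The difference ran from 2.80 without WT replicate 3 to 4.91 without WT replicate 4. Without Ahr-KO replicate 3 it was 3.69, with a limma unadjusted p of 0.0514.

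The other Mxi1 probe set, 17360331, was higher in Ahr-KO as well but by less. It gave 65.6, 284 and 42.7 on the Ahr-KO arrays, against 43.1, 11.8, 15.99 and 36.7 on the WT arrays. The lowest Ahr-KO value lay just under the highest WT value, and 284 on Ahr-KO replicate 2 stood apart from the rest. WT replicates 2 and 3 lay under the background mark. The log2 difference was 1.94 ± 0.79 (SE; 95% interval 0.12 to 3.76), with a limma unadjusted p of 0.0395 and an adjusted p of 0.963. An exact two-sided permutation test gave p = 0.0857. The difference was 1.14 without Ahr-KO replicate 2, with a limma unadjusted p of 0.15, and 1.47 with a pseudocount of 16. The arrays that ranked highest within a genotype were not the same for the 2 probe sets: Ahr-KO replicate 2 and WT replicate 1 for this probe set, and Ahr-KO replicate 3 and WT replicate 4 for 17365690. The part of Mxi1 that each covers is not stated by the labels or the annotation.

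The other Mxd antagonists gave smaller differences. Mxd4, a family member linked to differentiation, gave 65.1, 99.2 and 316 on the Ahr-KO arrays, against 90.3, 63.5, 79.5 and 176 on the WT arrays, with a log2 difference of 0.42 ± 0.67 (SE) that was -0.23 without Ahr-KO replicate 3. Mxd1, which is known to be induced as granulocytes mature, gave 24.0, 45.2 and 55.5 on the Ahr-KO arrays, against 34.96, 40.5, 85.1 and 39.5 on the WT arrays. Mxd3, the family member known for expression in proliferating cells, stood at 9.74, 30.6 and 44.5 against 21.3, 40.6, 24.4 and 21.5. Mxd1 and Mxd3 were near the background mark: Mxd1 was above it on 2 arrays of each genotype and Mxd3 on 1 Ahr-KO array and no WT array. Their log2 differences were -0.25 ± 0.53 (SE) and -0.12 ± 0.61 (SE), and both were above 0 without Ahr-KO replicate 1, at 0.10 and 0.49. The limma adjusted p of these 3 genes ran from 0.968 to 0.992.

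Mnt, the broadly expressed antagonist that pairs with Max or Mlx and recruits Sin3, had the lowest log2 difference of the network. It stood at 23.8, 17.1 and 35.9 in Ahr-KO, under the background mark on every array, and at 33.2, 151, 101 and 248 in WT, above the mark on 3 of 4 arrays. WT replicate 1, the dim one, lay just under the highest Ahr-KO value, so the groups overlapped by that array. The log2 difference was -2.07 ± 0.72 (SE), with a 95% interval from -3.74 to -0.40, a limma unadjusted p of 0.0213 and an adjusted p of 0.963. The exact permutation p was 0.0857, two-sided. The difference ran from -2.62 without WT replicate 1 to -1.67 without WT replicate 4, and it was -1.63 with a pseudocount of 16, which weighs dim values less.

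Beside the lower Mnt values, the summed intensity of macrophage and dendritic cell markers was also lower in Ahr-KO. All 7 measured markers of that list had lower mean log2 values, and none was listed at 0. Sums ran from 212 to 517 in Ahr-KO and from 580 to 969 in WT. H2-Eb1 gave 170, 441, 228 and 160 of the WT sums, and 16.4, 43.4 and 132 of the Ahr-KO sums. Of the 7 markers, 2 were above the mark on no array. The 7 measured B cell markers also all had lower mean log2 values in Ahr-KO, but their signal was dim. Of these 7, 4 were above the mark on no array and 0 on all 7 arrays. Their sums overlapped, from 138 to 195 in Ahr-KO and from 160 to 296 in WT. HSC markers were lower for 6 of 8, with sums from 1856 to 2753 in Ahr-KO and from 2663 to 6798 in WT. The sum of 6798, on WT replicate 3, held 3932 from Gata2. Slamf1, the sorting marker, ran the other way, at 57.4, 78.0 and 236 on the Ahr-KO arrays, against 4.56, 23.3, 7.81 and 73.3 on the WT arrays, and was the HSC marker with a limma unadjusted p under 0.05 (0.0288; adjusted p = 0.963). The part of these markers in the Mnt or Mxi1 values was not tested.

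**Figure D2:**
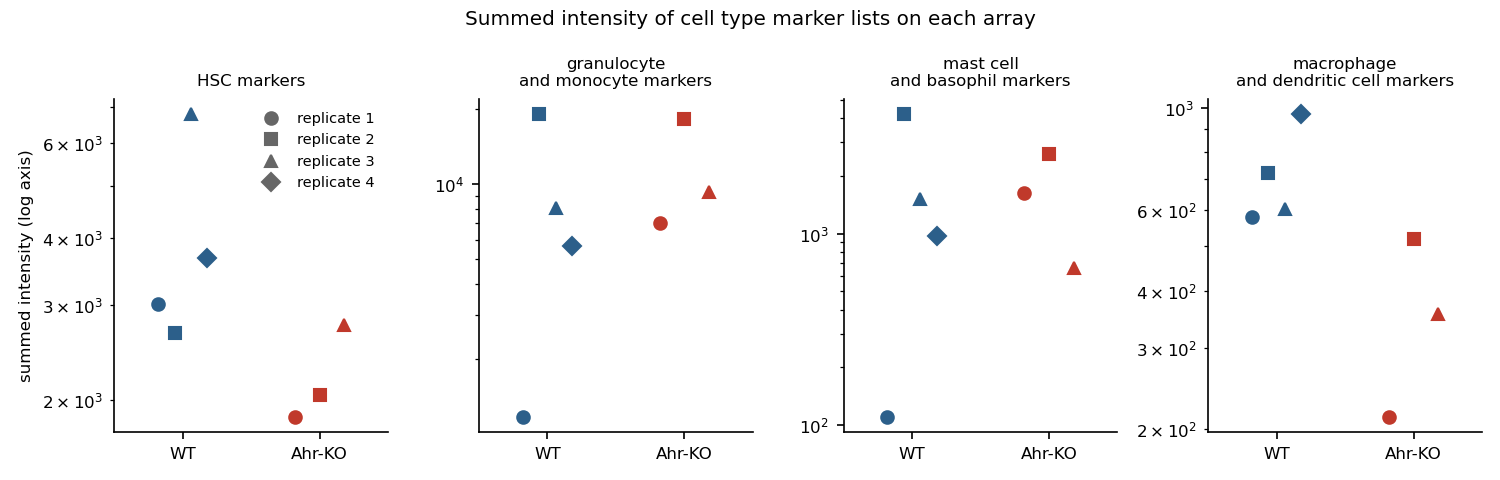
Summed intensity on a log axis, for 4 lists of cell type markers, on each WT and Ahr-KO array, with 1 point per array. WT replicate 1 has the lowest granulocyte and basophil sums, and the macrophage and dendritic sums of the 3 Ahr-KO arrays, 212 to 517, lie below those of the 4 WT arrays.

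Mga, the large scaffold that joins Max to the Polycomb complex PRC1.6, gave 31.9, 112 and 206 on the Ahr-KO arrays, against 40.5, 327, 305 and 248 on the WT arrays. WT replicates 2 to 4 were above all Ahr-KO arrays and WT replicate 1 was near the lowest of them. Mga differed by -0.97 ± 0.93 log2 units (SE; limma adjusted p = 0.963), with a 95% interval from -3.13 to 1.19. Leaving out WT replicate 1 gave -1.67, and leaving out Ahr-KO replicate 1 gave -0.23. Myc, Mnt and Mga each had a lowest WT value well apart from the rest on WT replicate 1, the array with the lowest granulocyte sum. Max, Mxd1 and Mxd3 were lowest there by little. Max gave 305 against 311 on WT replicate 2. On WT replicate 4, Mxd1 gave 39.5 against 34.96 and Mxd3 gave 21.5 against 21.3. Mxi1 probe set 17360331 had its highest WT value on WT replicate 1.

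Mlx, the hub of the MondoA and ChREBP arm, was dim and uneven. It gave 5.30, 58.9 and 82.8 on the Ahr-KO arrays, against 47.4, 27.8, 1.2 and 66.0 on the WT arrays, above the mark on 2 arrays of each genotype. Its log2 difference of 0.57 ± 1.37 (SE; limma adjusted p = 0.978) had the largest standard error of the network. Leaving out WT replicate 3 gave -0.52, and leaving out Ahr-KO replicate 3 gave -0.13.

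**Figure D3:**
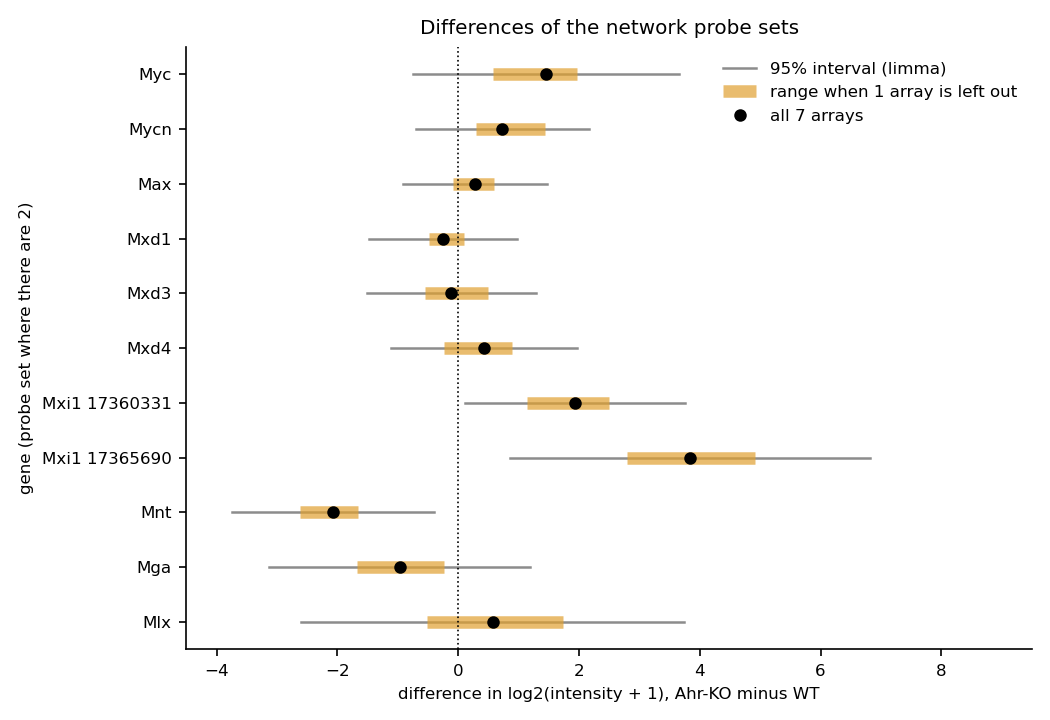
Log2 difference (Ahr-KO minus WT) of each network probe set with its 95% interval from limma, and the range of the difference when each array was left out in turn. The intervals of both Mxi1 probe sets and of Mnt exclude 0 before adjustment over the 25335 probe sets, and the leave-out ranges of Max, Mxd1, Mxd3, Mxd4 and Mlx cross 0.

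The wider pathway was read through 8 lists of partners, regulators and targets, 116 genes (Wdr5 stands in 2 lists) of which 103 had a probe set with a single symbol. None of the 103 had a limma adjusted p under 0.05. Before adjustment 2 had a p under 0.05, or 1.94%, against 4.02% of all 22180 genes: Usf2, an E-box factor outside the network, and Rbbp7, a histone-binding subunit of Sin3 and other deacetylase complexes. Usf2 gave 10.6, 140.4 and 36.0 on the Ahr-KO arrays, against 142, 288, 156 and 129 on the WT arrays, with a log2 difference of -2.12 ± 0.83 (SE). Rbbp7 stood at 457, 567 and 395 against 91.8, 211, 267 and 278, with a log2 difference of 1.26 ± 0.53 (SE). Its groups did not overlap, as for 2.61% of all tested probe sets with higher values in Ahr-KO. The limma adjusted p was 0.963 for Usf2 and for Rbbp7.

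Target genes of the network gave no common direction in the arrays. Of 34 measured genes activated by Myc, 21 had higher and 13 lower values in Ahr-KO, with a median log2 difference of 0.13 against -0.03 over all genes, and 21 of the 34 were above the background mark on all 7 arrays. The nucleolar GTPase gene Gnl3 gave 1541, 650 and 856 on the Ahr-KO arrays, against 713, 157, 344 and 596 on the WT arrays, with a log2 difference of 1.28 ± 0.65 (SE). The mitochondrial serine pathway enzyme gene Shmt2 differed by 2.71 ± 1.49 (SE), with 8.17 on WT replicate 2, and the ribosome assembly gene Nop16 differed by -1.22 ± 0.70 (SE). Of 10 measured genes repressed by Myc, 7 were higher and 3 lower, with a median of 0.30. The cell cycle inhibitor gene Cdkn1a was above the mark on 1 array, Ahr-KO replicate 2, at 232, and between 5.34 and 19.96 on the others. Of the 6 targets of the Mlx arm, 4 had lower values, with a median of -0.33. Txnip, the arrestin-like brake on glucose uptake that MondoA drives, gave 1441, 1332 and 697 on the Ahr-KO arrays, against 1568, 1670, 2107 and 1820 on the WT arrays. Its groups did not overlap, as for 3.13% of all tested probe sets with lower values in Ahr-KO. Txnip differed by -0.69 ± 0.46 log2 units (SE; limma adjusted p = 0.963).

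Most partners of Mga had lower values in Ahr-KO, as Mga did, and none passed the test. Of 10 measured PRC1.6 genes, 9 had lower values, with a median log2 difference of -0.76. The heterochromatin protein gene Cbx3 gave 343, 549 and 556 on the Ahr-KO arrays, against 769, 2577, 1019 and 800 on the WT arrays, with no overlap (3.13% of all tested probe sets had no overlap with lower values in Ahr-KO), a log2 difference of -1.26 ± 0.57 (SE). Ring1, which encodes a Polycomb ubiquitin ligase, differed by -2.11 ± 0.93 (SE) and was above the mark on no Ahr-KO array and 2 WT arrays. Tfdp1, the dimer partner of E2F factors, was the exception at 1.24 ± 0.60 (SE). The limma adjusted p was 0.963 for these 3 genes.

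Cofactors and regulators were split. Of 12 coactivators and partners of Myc, 7 were higher and 5 lower, with a median of 0.21. The histone acetylase scaffold gene Trrap differed by -1.82 ± 0.87 (SE), the helicase gene Ruvbl1 by 1.71 ± 0.79 (SE), and the elongation kinase gene Cdk9 by -2.28 ± 1.06 (SE). Of 11 corepressors of Mxd and Mnt, 5 were higher and 6 lower, with a median of -0.20. Of 14 genes of Myc protein turnover, 7 were higher and 7 lower, with a median of -0.10. Fbxw7, which encodes the ubiquitin ligase subunit that marks Myc for degradation, was listed at 0 on Ahr-KO replicate 2 and exceeded the mark on WT replicate 4 alone, at 157. It is named outside the rule, after its values were seen. Of 7 further E-box factors and partners, 3 were higher and 4 lower, with a median of -0.49. Mlxip, which encodes MondoA, differed by 1.16 ± 0.79 (SE), with 472 on Ahr-KO replicate 1 and 39.0 to 94.96 on the 6 other arrays.

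**Figure D4:**
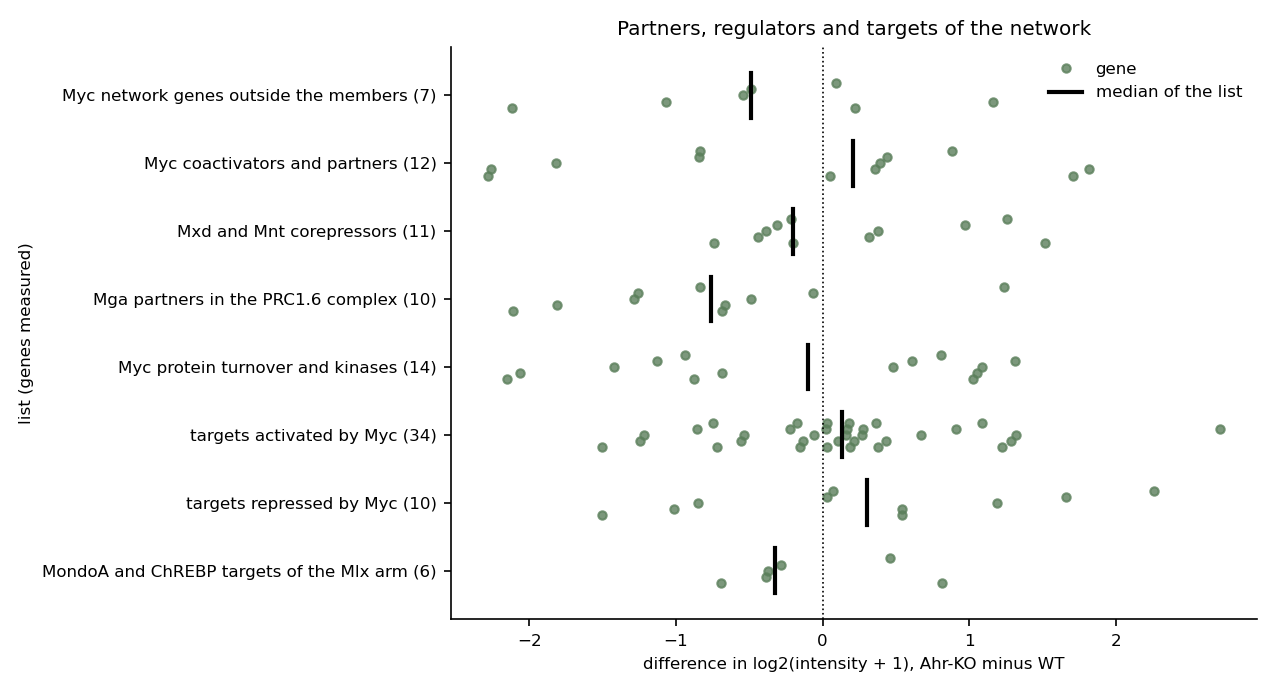
Each point is the log2 difference (Ahr-KO minus WT) of a gene by its brightest probe set, in 8 lists of partners, regulators and targets, with the list's median as a bar. Medians lie between -0.76 (Mga partners) and 0.30 (genes repressed by Myc), and none of the 103 genes passed the adjusted threshold.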

How the data were processed

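The authors deposited a linear-scale intensity for every probe set on 7 single-colour arrays hybridised with biotinylated cDNA. The submitters' processing notes name Affymetrix Expression Console. No source used here gives its algorithm, background correction or normalization. Arrays have no read depth, so their number limits the precision. The annotation listed 25335 of 41155 rows, and symbols were updated through Entrez ID where it matched (23328 of 23521 rows with 1 symbol). Values were taken as log2(intensity + 1), and differences understate the fold change of dim genes. All 25335 probe sets were fitted with limma 3.58.1 (R 4.3.3; genotype as the single term, Benjamini-Hochberg, threshold 0.05), and the member rows were read from that fit. For lists, a gene was its brightest probe set with 1 symbol. In the lists of partners, regulators and targets, up to 4 genes per list were eligible to be named, by smallest unadjusted p. Cell type marker genes were named outside that rule, with their values known. Single differences were also tested by exact permutation. The procedure was also run on simulated data with independent noise for each probe set. That setting lacks effects shared across an array, and its outcome is not given here. The members, the lists and the background mark were chosen with earlier results of these data known. Alternatives were each array left out, a replicate block, pseudocount 16, quantile normalization, median centring, a filter on dim probe sets, all rows, array weights and another variance prior.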

Additional observations from a re-analysis of the deposited data

Results flagged for a closer look

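Among the 11 member probe sets, 2 had a WT array far from the other 3 by Dixon's gap over range, past its 95% critical value, in a test that flags about 1 group in 20 by chance. All ratios were taken on log2(intensity + 1), and ratios of the intensities themselves differ. For Mga, WT replicate 1 stood at 40.5 intensity units, with a ratio of 0.867 on the log2 scale. For Mxd1, WT replicate 3 stood at 85.1 intensity units, with a ratio of 0.836 on that scale. Groups of 3 arrays were not tested.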

How the results depend on the processing

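Over 15 alternatives, the count of all tested probe sets at a limma adjusted p under 0.05 stayed at 0. The unadjusted count, 1067, was 572 with the filter on dim probe sets and 1781 with all rows, which test fewer and more probe sets, and 954 to 1339 without single arrays. The member count at an unadjusted p under 0.05 was 3, and 1 with the replicate block and 1 to 3 without single arrays. The block fit gave a log2 difference of 4.91 for Mxi1 probe set 17365690, the same as without WT replicate 4, which is alone in its block. The replicate numbers share a number only: deviations of same-numbered arrays correlated at 0.02, -0.06 and 0.01. The count of members higher in Ahr-KO was 4 to 9 without single arrays. The direction of Myc, Mycn, Mxi1 (both), Mnt and Mga was the same under all 15 alternatives. Mxd3 was 0.054 with array weights. Without single arrays Max ran from -0.079 to 0.60, Mxd1 from -0.49 to 0.10, Mxd3 from -0.55 to 0.49, Mxd4 from -0.23 to 0.90 and Mlx from -0.52 to 1.73. The cause of these changes was not tested. Dim signal limits Mxd1, Mxd3, Mlx, Mnt and Mxi1 probe set 17360331, which lay at or under the background mark on several arrays.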
